A study of Mus musculus with 10 samples.

Results

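The olfactory receptor clusters of mouse chromosomes 2, 7 and 9 are 3 regions in which genes for odorant receptors lie side by side. Their DNA was measured in liver of 10 mice on oligonucleotide arrays, as a ratio of signal to a pool of DNA. The members were chosen by position alone, as the array probes that start inside fixed bounds in each region. On the mm9 build used by the arrays, 475 probes lay at chr2:85006494-90498671, 501 at chr7:109404315-115493618 and 259 at chr9:37400629-40298163. Together these were 1235 of the 161460 autosomal probes and of the 170305 probes in all. The 9 probes at chr9:39209966-39288078 are called the chromosome 9 stretch and are described apart from the other 250 of that cluster, because earlier results of these data had shown the stretch to vary. Its difference between the groups is therefore a description.

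Olfactory receptors are G protein-coupled receptors in the cilia of sensory neurons of the nose, where each neuron expresses a single allele of a single receptor gene. They form the largest gene family of the mouse, which grew by tandem duplication, so that neighbouring genes in a cluster are often near copies of each other and many have decayed to pseudogenes. Chromosome 7 holds the class I receptors, the branch of the family shared with fish, beside class II receptors, and chromosomes 2 and 9 hold large class II clusters. RefSeq's annotation of a later build, GRCm38.p6, lists 1428 genes with an Olfr symbol, pseudogenes included, of which 377 are on chromosome 2, 294 on chromosome 7 and 179 on chromosome 9. The array files name no gene and that annotation is on another build, so whether a given probe lies in a receptor gene, in an exon or between genes was not determined here. DNA of liver carries the same receptor genes as DNA of the nose, and no expression was measured.

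The groups were 5 ICSI-derived and 5 naturally born mice of ZFLacZ, a transgenic line that goes back to SJL and C57BL/6. The ICSI-derived animals came from intracytoplasmic injection of ZFLacZ sperm, from testis cells frozen 14 years earlier, into oocytes of DBA x C57BL/6 females. The naturally born animals were ZFLacZ progeny with no cross given in the labels, so strain background and way of derivation differ between the groups together and cannot be told apart. All animals carry the ZFLacZ background, the naturally born group being called wild-type ZFLacZ progeny in the protocol, and the labels give them as adult. Each group had 3 males and 2 females by label. Each animal's DNA, in Cy5, was hybridised against 1 pool, in Cy3, of equal amounts of C57BL/6, SJL and DBA DNA. Values are log2 ratios of animal over pool, centred on the autosomal median of each array. A value of 0 is thus the autosomal level, and a value above 0 is more signal from the animal than from the pool. A gain or a loss below names a run of raised or lowered ratio. Whether the ratio at a probe reflects copy number was not tested.

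An array that goes against its label has to be named before the results. Naturally born replicate 3 is a male by its label, and its array gave a mean log2 ratio of -0.033 for chromosome X against -0.0072 for chromosome Y. The other labelled males lay from -0.61 to -0.55 and from 0.75 to 0.82, and the females from 0.26 to 0.28 and from -1.57 to -1.42. The group differences of the clusters, the stretch and the block are therefore also given without this array. At the 10 probes named for their p and the 9 windows named for their spread, leaving it out turned no sign and made no call. The noise of an array, which its header gives as the spread of steps from probe to probe, ran from 0.14 to 0.21 over the arrays and was highest on those of ICSI-derived replicates 1 and 4. Precision is limited by the number of arrays.

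Averaged over a whole cluster, the groups differed on chromosomes 2 and 7 by less than the spread between animals, while on chromosome 9 the naturally born animals had the lower values. The chromosome 2 cluster averaged 0.02 ± 0.02 for the ICSI-derived group and 0.0077 ± 0.029 for the naturally born one (SD, n = 5 each), a difference of 0.0086, and 0.012 without naturally born replicate 3. Values ran from -0.0079 to 0.039 and from -0.027 to 0.033, so the groups overlapped. The chromosome 7 cluster averaged 0.04 ± 0.01 and 0.04 ± 0.02 (SD, n = 5 each), a difference of 0.0006, and 0.0036 without that animal, and all 10 animals were above 0, from 0.0018 to 0.061. The chromosome 9 cluster was at -0.0053, 0.028, -0.0068, -0.0079 and 0.015 in ICSI-derived replicates 1 to 5 and at -0.0093, -0.080, -0.033, -0.057 and -0.015 in naturally born replicates 1 to 5. Every naturally born animal was below every ICSI-derived one there, though the nearest, at -0.0093 and -0.0079, were close. The group means were 0.0046 ± 0.016 and -0.04 ± 0.03 (SD, n = 5 each), a difference of 0.04, and 0.04 without naturally born replicate 3. With the stretch left out, the other 250 probes averaged 0.0011 ± 0.014 and -0.03 ± 0.03, and the groups overlapped, with the highest naturally born animal at -0.0008 and the lowest ICSI-derived animal at -0.014. No test was made of these means, since the members were chosen with earlier results known.

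No member passed the test of the group difference over all autosomal probes. With limma (group and sex in the model, Benjamini-Hochberg adjustment at 0.05 over all 161460 autosomal probes) 0 of the 1235 member probes were called, where 0.0155% of all autosomal probes were called higher in ICSI-derived animals and 0.00434% lower. The same test on the means of 10 neighbouring probes called 0 of 46, 49 and 25 windows in the clusters of chromosomes 2, 7 and 9, against 0.0186% of 16138 autosomal windows called higher and 0.0% called lower. At an unadjusted limma p under 0.05, chromosome 9 had 24 of its 259 probes higher in the ICSI-derived group and 8 lower. Chromosome 2 had 10 and 9 of 475, and chromosome 7 had 3 and 3 of 501. Over all autosomal probes 1.73% were higher and 1.54% lower by that measure, so chromosome 2 was near the background, chromosome 7 under it and chromosome 9 over it. The 24 of chromosome 9 include the 6 neighbouring probes described below as the block, most of them in the stretch that was known to vary. The share without them was not computed. Of windows, 5 on chromosome 9, 3 on chromosome 2 and 0 on chromosome 7 were higher at that unadjusted p and 0 were lower in any of the clusters, against 1.57% and 1.17% of autosomal windows. The groups did not overlap at 4 probes of chromosome 9, 2 with the ICSI-derived animals higher and 2 with them lower, at 2 and 1 on chromosome 2 and at 0 and 1 on chromosome 7, where 0.264% and 0.246% of autosomal probes did not overlap in these directions. Of windows, 2 of the 25 on chromosome 9 were higher without overlap, against 0.322% of autosomal windows. Both hold probes of the block, and the 2 probes of chromosome 9 that were higher without overlap lie in the stretch. These counts are therefore a description.

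The 9 probes of the chromosome 9 stretch, which was set apart because it was known to vary, averaged 0.14, 0.26, -0.24, 0.17 and 0.17 in ICSI-derived replicates 1 to 5 and -0.25, -0.30, -0.27, -0.34 and -0.24 in naturally born replicates 1 to 5. ICSI-derived replicate 3 was at the level of the naturally born animals, just above the nearest of them, and the other 4 ICSI-derived animals were above the autosomal level. The means were 0.10 ± 0.20 and -0.28 ± 0.04 (SD, n = 5 each), a difference of 0.38, and 0.39 without naturally born replicate 3. Within the slides, which each held both groups equally, the difference was 0.48, 0.27 and 0.42. ICSI-derived replicate 3 was on the slide with 0.27.

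The difference lay in the first 5 probes of the stretch and in the probe just before it, and ended between chr9:39243066-39243125 and chr9:39261032-39261091. These 6 neighbouring probes span chr9:39198693-39243125, or 44.4 kb. Their mean was 0.46, 0.57, -0.25, 0.47 and 0.51 in ICSI-derived replicates 1 to 5 and -0.31, -0.33, -0.35, -0.38 and -0.32 in naturally born replicates 1 to 5. Naturally born animals were close together, at -0.34 ± 0.03, whereas ICSI-derived animals were at 0.35 ± 0.34 (SD, n = 5 each). The difference was 0.69, and also 0.69 without naturally born replicate 3. Segmentation, which splits each animal's profile into runs of constant level and calls a run of at least 5 probes at 0.25 or more from 0, found this block as a gain in replicates 2 and 5 of the ICSI-derived group. It found a loss in naturally born replicate 4 that ran on to chr9:39198693-39288078, 10 probes at -0.36. The bounds of the block were set from these values, so the values inside it are a description. The other 7 animals had no called segment there, with means of 0.46 and 0.47 in 2 of them, ICSI-derived replicates 1 and 4, whose arrays were the noisiest, and from -0.35 to -0.25 in the other 5.

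At the single probes of the block, which make up its mean, the same 4 ICSI-derived animals were the 4 highest. The probe at chr9:39228698-39228757 was at 0.28, 0.59, -0.03, 0.32 and 0.50 in ICSI-derived replicates 1 to 5 and at -0.26, -0.39, -0.27, -0.23 and -0.33 in naturally born replicates 1 to 5. Its groups did not overlap, and the difference of 0.63 ± 0.10 (SE, n = 5 each) had a limma adjusted p of 0.110. That at chr9:39218337-39218396, whose groups did not overlap either, differed by 0.67 ± 0.12 (SE, limma adjusted p = 0.328). The probe at chr9:39239783-39239842, the mean of 5 replicate spots, was at 0.64, 0.53, -0.17, 0.68 and 0.54 and at -0.35, -0.33, -0.31, -0.28 and -0.17. It differed by 0.73 ± 0.12 (SE, limma adjusted p = 0.223), with ICSI-derived replicate 3 just below the highest naturally born animal. That at chr9:39209966-39210025 differed by 0.69 ± 0.17 (SE, limma adjusted p = 1). At the last 4 probes of the stretch the groups overlapped, and the probe at chr9:39272377-39272436 was below 0 in all 10 animals, from -0.55 to -0.32.

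The signal of each dye shows in which channel the animals differed. Over the 6 probes of the block the pool's Cy3 level, as log2 intensity minus the autosomal median of the array, was between -1.02 and -0.90 on all 10 arrays. The animals' Cy5 level was -0.48, -0.44, -1.22, -0.48 and -0.47 in ICSI-derived replicates 1 to 5 and between -1.30 and -1.22 in the naturally born animals. The Cy5 levels thus fell at 2 heights with nothing between, and ICSI-derived replicate 3 was at the lower one. Over the whole stretch the median Cy3 level was -0.94, against -0.16 over the chromosome 9 cluster, so these probes were dimmer than most. All of them were well above background on every array. The part of probe brightness in the difference was not tested.

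Leaving out ICSI-derived replicate 3 changed the calls on chromosome 9. This animal stands out by the same values that are tested, so the p-values without it are a description and no separate evidence. Without it the ICSI-derived group was called higher by limma at 8 probes, where 0.0291% of autosomal probes were called higher, and lower at 1, where 0.0186% were. The 8 were the 6 probes of the block and those at chr9:38360093-38360152 and chr9:38481508-38481567. Their differences ran from 0.46 ± 0.06 (SE, limma adjusted p = 0.0358) at the probe starting at 38360093 to 0.97 ± 0.07 (SE, limma adjusted p = 0.000129) at the probe starting at 39198693. Of windows, 3 neighbours that cover chr9:38972088-39294498 were called higher, where 0.0372% of autosomal windows were. They differed by 0.26, 0.20 and 0.42 (limma adjusted p = 0.00259, 0.0049 and 5.52e-05). With all 10 animals the window at chr9:39209966-39294498 differed by 0.34 ± 0.06 (SE, limma adjusted p = 0.306). The window at chr9:38972088-39064582 differed by 0.19 ± 0.05 (SE, limma adjusted p = 1).

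Elsewhere in the chromosome 9 cluster the same animals stood together at 3 more single probes. At chr9:38360093-38360152 the values were 0.26, 0.35, -0.01, 0.42 and 0.41 in ICSI-derived replicates 1 to 5 and from -0.21 to 0.03 in naturally born animals, so that ICSI-derived replicate 3 again fell in the naturally born range. At chr9:38481508-38481567 the values were 0.09, 0.51, -0.34, 0.38 and 0.33 in ICSI-derived replicates 1 to 5 and from -0.43 to -0.19 in naturally born animals. That animal lay inside the naturally born range here too. The position chr9:40003163-40003222 ran the other way, at -0.63, -0.52, 0.09, -0.61 and -0.45 in ICSI-derived replicates 1 to 5 and at 0.18, 0.10, 0.11, 0.20 and 0.18 in naturally born replicates 1 to 5. Here 4 ICSI-derived animals were low and the groups did not overlap. The difference was -0.58 ± 0.12 (SE, limma adjusted p = 0.518), and -0.71 without ICSI-derived replicate 3 (limma adjusted p = 0.000386). At this probe too the pool's Cy3 level was alike on all arrays, from -0.09 to 0.09, and the animals' Cy5 level ran from -0.59 to 0.19. The remaining probe without overlap, at chr9:39775503-39775562, was lower in ICSI-derived animals by -0.10, with a limma adjusted p of 1.

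A different set of animals stood apart in the proximal part of the chromosome 9 cluster. At chr9:37988544-37988603 the values were 0.49, 1.40, 0.72, 0.51 and 0.69 in ICSI-derived replicates 1 to 5 and 0.63, -1.05, -0.96, -0.64 and 0.45 in naturally born replicates 1 to 5. Naturally born replicates 2, 3 and 4 were low, and naturally born replicates 1 and 5 were with the ICSI-derived animals. The pool's Cy3 level stayed from -1.20 to -0.98, while the Cy5 level ran from -2.20 to 0.33. At chr9:38941985-38942044 the same 3 animals were low, at -0.66, -0.52 and -0.51, against values from 0.10 to 0.55 in the other 7. Among the 13 most variable probes of the cluster, those with a standard deviation over animals above the autosomal 99th percentile of 0.348, these 3 animals were the lowest at 4. That was so at 43 of the 1615 autosomal probes above this percentile, or 2.66%. Of the 4 in the cluster, the probe starting at 39218337 belongs to the block, where every naturally born animal was low. ICSI-derived replicates 1, 2, 4 and 5 were the 4 highest at 7 of the 13, against 33 of the 1615, or 2.04%. Of these 7 probes, 6 belong to the block and are neighbours, so they do not count as separate observations.

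Both patterns of chromosome 9 show in windows of 10 probes. Those starting at 37988544, 38879131, 39074752 and 39209966 hold probes that defined the patterns, so they are no separate observations. In the window at chr9:37988544-38099197 naturally born replicates 2, 3 and 4 were at -0.11, -0.03 and -0.07, and the other 7 animals lay from 0.07 to 0.14. In the next, at chr9:38117916-38228079, these 3 were at -0.22, -0.11 and -0.23 but did not stand apart. The other 7 ran from -0.11, in ICSI-derived replicate 1, to 0.21, in ICSI-derived replicate 2. In the window at chr9:38879131-38962394 the same 3 were at -0.20, -0.05 and -0.10 and the others from -0.03 to 0.11. In the 3 windows over chr9:38972088-39294498 the other pattern was seen, with ICSI-derived replicate 3 in the lower set of animals. The window after them, at chr9:39300197-39390399, no longer showed it, with ICSI-derived replicates 1 and 3 at -0.08 and 0.03. The probes starting at 38360093 and 38481508, proximal to the window at chr9:38879131-38962394, also had it, so the 2 patterns alternate along the cluster. The window at chr9:39074752-39198752 was at 0.10, 0.13, -0.08, 0.06 and 0.08 in ICSI-derived replicates 1 to 5 and from -0.15 to -0.08 in naturally born animals, a difference of 0.16 ± 0.03 (SE, limma adjusted p = 0.542). The next one, at chr9:39209966-39294498, was at 0.14, 0.25, -0.19, 0.16 and 0.17 and from -0.30 to -0.20, and its groups did not overlap. No window of the chromosome 9 cluster was above 0 in all 10 animals.

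In the chromosome 7 cluster animals of both groups differed from others of their own group. The most variable probes split the animals in 1 recurring way. Of the 9 probes above the 99th percentile of spread, 6 had the same 4 highest animals, replicates 1 and 5 of the ICSI-derived and replicates 1 and 4 of the naturally born group, against 21 of the 1615 such autosomal probes, or 1.30%. These 6 probes start at 110844593, 111459305, 111656562, 111676075, 114255777 and 114457136 and so span more than 3 Mb. At each of them the fifth highest value was that of the array labelled naturally born replicate 3. At those starting at 111459305, 111676075, 114255777 and 114457136 the largest gap between animals lay below this array, so it stood with the 4 high animals. At the other probes of the pattern the largest gap lay above it. At chr7:110844593-110844652 the values were 1.77, 0.74, 0.52, 0.78 and 1.65 in ICSI-derived replicates 1 to 5 and 1.69, 0.60, 1.20, 1.64 and 0.83 in naturally born replicates 1 to 5. All 10 animals were above the pool here, and replicate 3 of the naturally born group fell between the 4 high animals and the rest. At chr7:114255777-114255836 they were 0.45, -0.45, -0.24, -0.34 and 0.57 and 0.31, -0.21, 0.16, 0.42 and -0.32. The 4 high animals were above 0, the array of naturally born replicate 3 was next at 0.16, and the other 5 animals were below 0.

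At 2 of these chromosome 7 probes the range over animals was again narrower in Cy3 than in Cy5. At chr7:110844593-110844652 the Cy3 level ran from -1.72 to -1.62 and the Cy5 level from -1.19 to 0.09. At chr7:111676075-111676134 they ran from -0.66 to -0.50 and from -0.93 to 0.21. The 4 high animals were 2 labelled males and 2 labelled females, and their arrays lay on all 3 slides.

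Segments of chromosome 7 lay at the same places and hold probes that defined the pattern, so they are no separate observations. The 5 probes at chr7:111430424-111500483, over 70.1 kb, were called a gain in 2 ICSI-derived animals, replicates 1 and 5, and in 3 naturally born ones, replicates 1, 3 and 4. In naturally born replicate 4 the call ran 1 probe further. Their mean was 0.84, 0.36, 0.43, 0.50 and 0.81 in ICSI-derived replicates 1 to 5 and 0.88, 0.35, 0.73, 0.96 and 0.40 in naturally born replicates 1 to 5. Every animal was above the autosomal level, and the 5 with a called gain were the 5 highest. The group means were 0.59 ± 0.22 and 0.66 ± 0.28 (SD, n = 5 each) and the groups overlapped. The pool's Cy3 level over these probes was from -0.89 to -0.65 and the Cy5 level from -0.41 to 0.18. A further gain was called in naturally born replicate 1 at chr7:110844593-110877929, 5 probes over 33.3 kb, where all animals were between 0.32 and 0.89.

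The group comparison gave no called probe or window on chromosome 7 with all 10 animals. Within the slide that holds replicates 3 and 4 of each group, 5 member probes and 2 member windows were called lower in the ICSI-derived group (limma adjusted p from 0.0179 to 0.0428). In that slide 0.0663% of all autosomal probes and 0.0558% of all autosomal windows were called lower. The probes start at 110844593, 111459305, 111676075, 111683924 and 114457136, and 4 of them belong to the recurring pattern. This slide holds naturally born replicate 4, a high animal of the pattern, and naturally born replicate 3, next below the high animals. The 2 ICSI-derived animals of the slide are both low. In the other slide with 2 animals of each group no member probe was called. Also within the slide of replicates 3 and 4, limma called 3 probes of chromosome 9 higher in the ICSI-derived group (limma adjusted p from 0.00145 to 0.0182), where 0.0737% of all autosomal probes were called higher. They are at starts 37807509, 37988544 and 38941985, where naturally born replicates 3 and 4 were among the low animals. The fit within this slide rests on 2 animals of each group, with terms for group and sex. Its p-values therefore lean on the spread shared over all probes or windows. It also takes naturally born replicate 3 as a male, though the array of that animal goes against its label.

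A single probe gave the most extreme values of the chromosome 7 cluster. At chr7:111209331-111209390 naturally born replicate 1 was at 0.65 and the other 9 animals between -2.04 and -1.33. The Cy5 level was -1.22 in that animal and between -3.96 and -3.38 in the others, and the Cy3 level was between -2.05 and -1.63 on all arrays. This probe was not well above background on 4 arrays, so the low values there are bounds set by the background. The difference of -0.71 ± 0.36 (SE, limma adjusted p = 1) rests on that 1 animal. The 1 probe whose groups did not overlap, at chr7:112763467-112763526, was lower in ICSI-derived animals by -0.11 (limma adjusted p = 1).

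The windows that varied most on chromosome 7 were those of the pattern. The window at chr7:111635791-111754112 was at 0.31, 0.05, 0.0090, 0.04 and 0.26 in ICSI-derived replicates 1 to 5 and at 0.30, -0.03, 0.20, 0.31 and 0.0029 in naturally born replicates 1 to 5. It differed between the groups by -0.02 ± 0.08 (SE, limma adjusted p = 1). The window at chr7:111393528-111537086 ran from 0.14 to 0.46 and that at chr7:110779426-110869731 from 0.11 to 0.38. In both windows the 4 high animals of the pattern were the 4 highest. All of these windows hold probes that defined the pattern, so they are no separate observations.

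Along the chromosome 7 cluster a minority of windows had the same sign in all animals. In 9 of its 49 windows all 10 animals were above 0, among them chr7:111093128-111175202, at 0.11 to 0.19, and in 0 all were below. The 9 include the windows starting at 110779426 and 111393528, which carried the recurring split. The share over all autosomal windows was not counted. The lowest value of any window was -0.25, in the window at chr7:111189419-111279831, which holds the probe of extreme values and in which naturally born replicate 1 was the highest at 0.057.

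The chromosome 2 cluster had a recurring split of its own, again across the groups. Of its 7 probes above the 99th percentile of spread, 4 had the same 4 highest animals, which were replicates 1, 2 and 5 of the ICSI-derived group with naturally born replicate 1, and 2 had these 4 as the lowest. Over the 1615 such autosomal probes these patterns were seen at 29, or 1.80%, and at 10, or 0.62%. The largest gap between animals set exactly these 4 apart at the probes starting at 85975146 and 87823476 and at the 2 where they were lowest. At 86032074 ICSI-derived replicate 4 was above the gap too. At 86929830 only replicate 1 of each group was above it. At chr2:85975146-85975205 the values were 1.45, 1.38, 0.64, 0.64 and 1.60 in ICSI-derived replicates 1 to 5 and 1.45, 0.20, 0.76, 0.38 and 0.41 in naturally born replicates 1 to 5. The 4 high animals were at 1.38 or more and the other 6 at 0.76 or less. The difference between the groups was 0.50 ± 0.24 (SE, limma adjusted p = 1). At chr2:89407215-89407274 the order turned, with -0.78, -1.04, 0.78, 0.63 and -1.15 and with -1.45, 0.68, 0.21, 0.72 and 0.71. The same 4 animals were below 0 and the other 6 above, and the probe was not well above background on 3 arrays. The Cy5 level of the 4 was between -3.63 and -3.45. A low ratio on an array not well above background is a bound set by that background. With 3 such arrays, not all ratios of the 4 low animals are bounds. The group difference of -0.49 ± 0.46 (SE, limma adjusted p = 1) rests on them. At chr2:90395244-90395303, where every array was well above background, the 4 animals lay from -0.50 to -0.28 and the other 6 from 0.16 to 0.47.

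The pool's level was less even at some chromosome 2 probes than at others. At chr2:85975146-85975205 the Cy3 level ran from -2.18 to -1.95 and the Cy5 level from -1.75 to -0.56. At chr2:90395244-90395303 they ran from 0.06 to 0.28 and from -0.33 to 0.61. The Cy3 level ranged more widely at the probes starting at 86032074, from -2.87 to -2.39, at 87823476, from -0.79 to -0.41, and at 89407215, from -2.83 to -2.18. The probes of the pattern that start at 85975146 and 90395244 lie more than 4 Mb apart.

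No named probe of chromosome 2 passed the test. The probe at chr2:86697527-86697586 had the smallest limma p among those at least 0.3 lower in ICSI-derived animals, at -0.38 ± 0.11 (SE, limma adjusted p = 1). Its values were -0.93, -0.85, -0.44, -0.40 and -0.42 and -0.57, -0.25, -0.06, -0.09 and -0.19, and naturally born replicate 1 fell among the ICSI-derived animals. The probe at chr2:86929830-86929889 was higher by 0.37 ± 0.17 (SE, limma adjusted p = 1), with naturally born replicate 1 the highest of all at 0.73. The probes without overlap between the groups were at chr2:85849412-85849471 and chr2:88527993-88528052, higher by 0.19 and 0.11, and at chr2:88166825-88166884, lower by -0.15, each with a limma adjusted p of 1. The windows of most spread, at chr2:86251128-86362798, chr2:89407215-89511176 and chr2:87436936-87522616, differed between the groups by 0.01 ± 0.04, -0.04 ± 0.04 and 0.04 ± 0.04 (SE, limma adjusted p = 1 for each).

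On chromosome 2, a segment called in 2 animals lay above 0 in all 10. The 6 probes at chr2:86032074-86097304, over 65.2 kb, were called a gain in ICSI-derived replicate 2 and naturally born replicate 1. Their mean was 0.49, 0.49, 0.41, 0.45 and 0.46 in ICSI-derived replicates 1 to 5 and 0.53, 0.33, 0.40, 0.22 and 0.32 in naturally born replicates 1 to 5. The animals without a call ranged from 0.22 to 0.49. The group means were 0.46 ± 0.03 and 0.36 ± 0.11 (SD, n = 5 each), and naturally born replicate 1 put the groups in overlap. The first probe of the segment, at chr2:86032074-86032133, was at 0.63 to 1.04 in the 4 high animals of the split and ICSI-derived replicate 4 and at 0.02 to 0.17 in the rest, while the probe at chr2:86080264-86080323 was at 0.57 to 0.83 in all 10.

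Along chromosome 2 the windows stayed near the autosomal level. The highest, at chr2:86018399-86123029, holds the segment and was at 0.10 to 0.35 in the 10 animals. The lowest, at chr2:90089421-90292183, was at -0.17 to -0.03, below 0 in every animal.

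In all, 11 of the 270 segments called over the autosomes of the 10 animals lay in the clusters, at 4 places and in 6 animals. With a penalty factor of 6 the count in the clusters was 2, and with a minimum of 10 probes it was 4. The 11 were 10 gains and 1 loss, of which the ICSI-derived animals held 5 and the naturally born animals 6. The spread between animals was close to that of the autosomes in the typical window of every cluster and larger in a few windows of chromosomes 7 and 9. The median over windows of the standard deviation between animals was 0.0448 on chromosome 2, 0.0440 on chromosome 7 and 0.0465 on chromosome 9, against 0.0420 over all autosomal windows. Above the autosomal 95th percentile of 0.0805 were 0 of 46, 4 of 49 (8.16%) and 6 of 25 windows (24.0%). Without naturally born replicate 1 the chromosome 7 share was 4.08%, under the 5% of the autosomes, and without naturally born replicate 2 or 3 it was 12.2%. Without naturally born replicate 2 the chromosome 9 share was 16.0%. Of single probes, 1.47% on chromosome 2, 1.80% on chromosome 7 and 5.02% on chromosome 9 were above the 99th percentile, where 1.00% of autosomal probes are by construction. The 6 windows of chromosome 9 lie in 2 runs, one over chr9:37988544-38228079 and one over chr9:38879131-39294498. The second run and the 5.02% of probes include the block, most of which lies in the stretch that was known to vary. The shares without the block were not computed.

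Some probes deviated from the pool alike in all animals. Beyond 0.5 in all 10 animals were 2 probes above and 1 below 0 on chromosome 2, 2 above and 0 below on chromosome 7, and 0 and 0 on chromosome 9, against 0.0359% of autosomal probes above and 0.0248% below. Those above on chromosome 2 were at chr2:86080264-86080323, given with the segment, and at chr2:86730238-86730297, at 0.52 to 0.93. The probe below was at chr2:85192059-85192118, from -0.85 to -0.52. On chromosome 7 they were at chr7:109674295-109674354, from 0.55 to 0.94, and at chr7:110844593-110844652, which also carried the recurring split. The probe at chr7:110388682-110388741 was low in all animals too, from -1.14 to -0.42. On chromosome 9 the nearest was the probe at chr9:38401041-38401100, at 0.31 to 0.62. The pool and the dyes were the same on every array, so a deviation of the animals, of the pool or of the dye cannot be told apart here.

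Among the ends of the clusters, levels inside and outside lay farthest apart at the proximal end of chromosome 7. There the first member, at chr7:109404315-109404374, was at 0.46 to 0.80 in all animals, and the nearest probe outside at -0.22 to 0.10. At the distal end of chromosome 7 the last member was at -0.14 to 0.37 and the next probe at -0.20 to 0.03, the lower of the pair in all 10 animals. On chromosome 2 the first member was at -0.21 to 0.0014 beside -0.17 to 0.05 outside, and the last at -0.28 to 0.22 beside -0.29 to -0.06. On chromosome 9 the first member was at -0.28 to 0.08 beside -0.0067 to 0.37, the member being the lower in all 10 animals, and the last at -0.33 to -0.06 beside -0.24 to 0.10. At the stretch, the probe just outside its proximal bound belonged to the block described above, and the probe just outside its distal bound was at 0.02 to 0.23.

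The probes of the clusters were as dense as elsewhere, with a median spacing of 9.94 kb on chromosome 2, 9.73 kb on chromosome 7 and 10.65 kb on chromosome 9, against 10.8 kb over the autosomes. Their median Cy3 level was -0.20, -0.09 and -0.16. Noise, as the robust spread of differences between neighbouring probes, had a median over arrays of 0.179 on chromosome 2, 0.182 on chromosome 7 and 0.144 on chromosome 9, against 0.147 over the autosomes. At least 1 array was not well above background at 6 probes of chromosome 2, 5 of chromosome 7 and 0 of chromosome 9, and no member was saturated. The part of signal and noise in the patterns of chromosomes 2 and 7 was not tested.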

How the data were processed

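Each of 10 Agilent 2-colour arrays, on 3 slides that each hold both groups equally and were scanned on 1 day, carried liver DNA of 1 mouse. The deposited scanner files give spot intensities from Feature Extraction 10.7.3.1, which subtracted background and balanced the dyes by a linear factor, per the file headers. A deposited table of log10 ratios matched the scanner files' ratios, Cy5 over Cy3, and served as an alternative. Partek 6.5 is in the submitters' processing notes, with no role. The headers of 6 arrays name mm9 and those of 4 name no build. Of 174305 non-control spots per array, 173864 to 174090 were well above background.

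Control spots were dropped, spots of a probe averaged, and log2 ratios centred on each array's autosomal median, with no loess or quantile step. For probes, and for windows of 10 consecutive probes, limma 3.58.1 was run in R 4.3.3 with terms for group and sex (lmFit, eBayes, two-sided), with Benjamini-Hochberg adjustment over all autosomal probes or windows at 0.05. Segments came from optimal partitioning with a penalty factor of 3, at least 5 probes, and a call at an absolute mean of 0.25. Both steps were tested on simulated data. Python 3.11.15, numpy 2.4.6 and pandas 2.3.3 were used.

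Named probes were, per cluster, the 3 with the smallest p in each direction at a difference of 0.3 or more. Named windows were the 3 with the largest spread. All segments, the probes of the stretch and the 2 probes farthest to each side of 0 in all animals were also named. Other probes were named after their values were seen. Members, lists and this rule were chosen with earlier results of these data known. The same replicate numbers in both groups did not pair animals: correlations of same-numbered deviations ran from -0.496 to 0.388. Alternatives were other background correction, normalisation, centring, filters, slide, sex term, array weights, window and segment settings and leaving out each animal. The arrays' genome sequence and probe sequences were not used here.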

Additional observations from a re-analysis of the deposited data

Results flagged for a closer look

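Of 48 sets of 5 values, 11 had an animal far from the other 4 of its group, where chance flags about 1 in 20 sets that were not chosen by their values. These sets were chosen for a small p, a large spread or a known variation, so that rate does not hold for them. Probes, windows and the stretch overlap, so these are not 11 separate observations.

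ICSI-derived replicate 3 was set apart from its group on chromosome 9 in 6 sets. In the chromosome 9 stretch it was at -0.24, with the others from 0.14 to 0.26. At the probe starting at 39239783 it was at -0.17 (others 0.53 to 0.68). At the probe starting at 39218337 it was at -0.17 (others 0.41 to 0.58). At the probe starting at 40003163 it was at 0.094 (others -0.63 to -0.45). In the window starting at 39209966 it was at -0.19 (others 0.14 to 0.25), and in the window starting at 38972088 at -0.16 (others 0.09 to 0.20).

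Naturally born replicate 1 was set apart at -1.45 at the chromosome 2 probe starting at 89407215 (others 0.21 to 0.72) and at -0.10 in the window that holds it (others 0.02 to 0.06). At the chromosome 7 probe starting at 111209331 it was at 0.65 (others -1.98 to -1.33). Naturally born replicate 4 was at -0.47 at the chromosome 9 probe starting at 39218337 (others -0.28 to -0.23). ICSI-derived replicate 4 was at -0.15 in the chromosome 2 window starting at 87436936 (others -0.01 to 0.02).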

How the results depend on the processing

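Over 30 alternatives, 416 of 425 recomputed counts, mean differences, spread shares and segment totals stayed within the limits set for a change. Within the slide of replicates 3 and 4, limma called 5 probes and 2 windows lower on chromosome 7 and 3 probes higher on chromosome 9, against 0 over all 10 animals. Leaving out each animal in turn gave 0 to 8 probes higher, 0 to 1 lower and 0 to 3 windows higher on chromosome 9, all calls being made without ICSI-derived replicate 3. The mean difference of the chromosome 7 cluster was 0.028 within the slide with 1 animal of each group, which allows no test, and -0.0081 to 0.0067 when each animal was left out. Segments in the clusters numbered 2 with a penalty factor of 6 and 4 with a minimum of 10 probes, against 11. Both settings ask for longer or higher runs. Leaving out an animal gave 8 to 11. With replicate number as a replicate block, 0 member probes and 0 member windows were called, as without the block. Over all autosomes the block gave 25 called probes against 32. Sign changes were seen only at named items not past the test. Within the slide of replicates 3 and 4 the difference at the chromosome 2 probe starting at 89407215 was 0.24, and in the windows starting at 86251128, 89407215 and 87436936 it was -0.030, 0.021 and -0.0063. With the median of a window, those starting at 86251128 and 87436936 were at -0.047 and -0.029. With dim probes left out the window starting at 89407215 was at 0.014. Within the slide of replicates 1 and 2 the chromosome 7 windows starting at 111635791 and 110779426 were at 0.044 and 0.027. Leaving out an animal gave a range of -0.028 to 0.057 for the window starting at 86251128, -0.074 to 0.020 for that at 111635791 and -0.062 to 0.011 for that at 110779426. The cause of these changes was not tested. The fit within the slide of replicates 1 and 2 had no sex term, because its animals are all labelled male. That of replicates 3 and 4 kept the term, with naturally born replicate 3 taken as a male. Probes not well above background limit single values on chromosomes 2 and 7.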
